A study of Mus musculus with 12 samples.

Results

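Heat shock chaperones were followed in RNA of the mouse sciatic nerve through 10 genes, *Hspa1a*, *Hspa1b*, *Hsph1*, *Dnajb1*, *Hsp90aa1*, *Hspb1*, *Hspb8*, *Cryab*, *Bag3* and *Hspe1*, out of 43432 genes in the count table. They were matched by symbol, as inducible chaperones and small heat shock proteins with their partners, some of which are mutated in inherited neuropathy. All 10 were found and all passed the filter on low counts. The study sequenced 1 nerve from each of 12 mice at 1 month of age, in 3 groups of 4: WT control (*Mtmr2* wt/wt, without niacin, libraries 4497 to 4500), *Mtmr2* KO (*Mtmr2* -/-, without niacin, 4501 to 4504) and *Mtmr2* KO niacin (*Mtmr2* -/-, 4505 to 4508). The *Mtmr2* null allele is a constitutive loss of a phosphoinositide phosphatase and models Charcot-Marie-Tooth 4B1 neuropathy, a demyelinating disease with excess myelin folding. Niacin was injected intraperitoneally at 120 mg/kg from postnatal day 10 and was replaced by a slow-release form, Niacin-SR, given by gavage from day 21 to day 30. Mutants were made on a 129/SvPas background, and there was no group of WT mice with niacin. The labels give no treatment for the mice without niacin, while the study's text calls the *Mtmr2* KO group vehicle treated.

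Chaperones bind unfolded or aggregating proteins and help them to fold or to be degraded. HSP70 proteins (*Hspa1a*, *Hspa1b*) cycle on and off their clients with ATP, helped by J proteins such as *Dnajb1*, which load clients, and by HSP110 (*Hsph1*), which releases the nucleotide. *Hsp90aa1* encodes the inducible cytosolic HSP90, which matures kinases and steroid receptors. Small heat shock proteins (*Hspb1*, *Hspb8*, *Cryab*) hold clients without ATP, *Bag3* links HSPB8 to HSP70 for selective autophagy, and *Hspe1* encodes the lid of the mitochondrial HSP60 folding chamber. Under proteotoxic stress the transcription factor HSF1 binds heat shock elements, which are inverted repeats of a GAA unit, in promoters of many of these genes. *HSPB1* and *HSPB8* are mutated in axonal neuropathies of people, and *Cryab* is abundant in Schwann cells and in muscle.

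The promoters are shown because heat shock elements are known in promoters of many of these genes, though not every member was found to hold one here. RefSeq promoters on GRCm38.p6 were found for 8 of the 10 genes, those other than *Cryab* and *Hsp90aa1*. In the 250 bases before the start site, 2 patterns were searched, GAANNTTC and TTCNNGAA, each of which reads the same on both strands. They can overlap each other by 3 letters, which gives a run of at least 3 units (GAANNTTCNNGAA or TTCNNGAANNTTC). At least 1 was found in 5 of the 8 genes (*Hspa1a*, *Hspa1b*, *Hsph1*, *Hspb1*, *Hspe1*), against 14.55% of 27025 genes with a promoter sequence. Such a run was found in 1 of the 8, *Hspe1*, against 0.51% of all genes. The upstream bases of *Hspa1a* (chr17:34972157-34972406, minus strand), *Hspa1b* (chr17:34959239-34959488, minus strand) and *Hspb1* (chr5:135887669-135887918, plus strand) follow, with the matches in capitals.
Hspa1a: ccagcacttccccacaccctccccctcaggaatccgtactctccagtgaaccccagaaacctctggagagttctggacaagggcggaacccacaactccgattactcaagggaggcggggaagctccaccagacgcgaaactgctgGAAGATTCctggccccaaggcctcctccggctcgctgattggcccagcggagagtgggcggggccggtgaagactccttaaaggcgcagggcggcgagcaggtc
Hspa1b: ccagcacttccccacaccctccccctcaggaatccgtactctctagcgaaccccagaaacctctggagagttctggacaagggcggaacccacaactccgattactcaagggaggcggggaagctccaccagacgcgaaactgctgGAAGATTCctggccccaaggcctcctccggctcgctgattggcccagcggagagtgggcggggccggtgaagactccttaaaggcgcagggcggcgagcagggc
Hspb1: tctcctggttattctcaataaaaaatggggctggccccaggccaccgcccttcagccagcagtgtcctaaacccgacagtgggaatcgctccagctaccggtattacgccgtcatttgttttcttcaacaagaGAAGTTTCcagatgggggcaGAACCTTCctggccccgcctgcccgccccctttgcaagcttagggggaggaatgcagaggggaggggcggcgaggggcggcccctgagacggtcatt
*Hspa1a* and *Hspa1b* differed at 3 of these positions and were 98.8% identical, with the match beginning 104 bases before each start. *Hspb1* had matches beginning 117 and 97 bases before its start. For *Hsph1* (chr5:149636351-149636380, minus strand) and *Hspe1* (chr1:55088053-55088082, plus strand), 30 bases around the matches are given. The longer windows reach into annotated exons, those beside *Hspe1* belonging to *Hspd1* on the other strand. The shorter windows are not clear of annotated genes either. The match of *Hsph1* lies inside that gene as annotated (chr5:149614287-149636376), whose start is further upstream than the RefSeq start. The window of *Hspe1* lies within the span of *Hspd1* (chr1:55077835-55088243). The match of *Hsph1* begins 54 bases before a RefSeq start site, and those of *Hspe1* begin 89, 84 and 79 bases before its RefSeq start site.
Hsph1: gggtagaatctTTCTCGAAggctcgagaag
Hspe1: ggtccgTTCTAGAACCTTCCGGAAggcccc
*Dnajb1*, *Hspb8* and *Bag3* held neither pattern in this window, which says only that these letters are not there.

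On GRCm38 the members lie on 7 chromosomes. *Hspa1a* (ENSMUSG00000091971, chr17:34969190-34972156) and *Hspa1b* (ENSMUSG00000090877, chr17:34956436-34959238) are neighbours on the minus strand and near-identical copies. Of the 150-base stretches of their transcripts, 38.1% of those of *Hspa1a* and 40.5% of those of *Hspa1b* occur unchanged in the other, so the split of reads between them is uncertain. Another 3 pairs overlap on opposite strands, and the strand setting of the counting was not given in the sources used here. *Cryab* shares 252 exon bases with *Hspb2*, *Hspa1a* shares 564 with *Gm20481* and *Hspe1* shares 112 with *Hspd1*, and reads of these stretches may not be told apart.

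Libraries held 20763951 to 33191106 counts. Levels are given as CPM, the counts relative to the library total after scaling by edgeR's TMM factors. *Mtmr2*, the inactivated gene, was at 128 to 161 CPM in WT control libraries and at 66.8 to 84.7 CPM in 7 of the 8 libraries labelled *Mtmr2* -/-, while the library labelled *Mtmr2* KO 4503 had 143 CPM, within the WT control range. Library 4502 stood apart from its group: markers of neurons summed to 94.6 CPM there against 26.5 to 38.5 CPM in the other 3 *Mtmr2* KO libraries. *Xist*, expressed in females, was at 545 to 687 CPM in 1 library of each group (4498, 4502 and 4506) and at 2.12 to 5.99 CPM in the others. Libraries 4506 and 4507 carried skeletal muscle RNA, with summed levels of 12 muscle markers of 4068 and 4034 CPM against 38.1 to 134 in the other 10. Markers of the nerve itself were present in every library, with 61800 to 116800 CPM over 6 myelinating Schwann cell genes. In such bulk RNA, fewer cells of a type and less RNA per cell cannot be told apart. Values are also given without libraries 4502, 4503, 4506 or 4507 where leaving them out moved them by over 1.5 times or changed a call.

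Per kilobase of exon, *Cryab* was far the most abundant member in WT control nerve, at 582 ± 40.4 CPM per kb (SD, n = 4). *Hsp90aa1* followed with 63.8 ± 7.84, *Hspb1* with 52.4 ± 12.5 and *Hspe1* with 33.5 ± 4.20 CPM per kb (SD, n = 4 each). *Bag3* stood at 17.6 ± 1.28, *Dnajb1* at 11.6 ± 0.321, *Hspb8* at 9.94 ± 1.44 and *Hsph1* at 5.38 ± 0.524 CPM per kb. The inducible HSP70 pair was lowest, with 4.98 ± 0.848 CPM per kb for *Hspa1b* and 1.82 ± 0.165 for *Hspa1a*. In this order the ranges of neighbours overlapped for *Hsp90aa1* and *Hspb1*, *Hspb1* and *Hspe1*, *Dnajb1* and *Hspb8*, and *Hsph1* and *Hspa1b*. The ranges of *Cryab* and of *Hspa1a* were separate from those of their neighbours.

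Among the HSP70 genes, *Hspa1a* was at 5.78, 5.54, 5.59 and 4.68 CPM in WT control libraries 4497 to 4500, at 10.8, 2.65, 7.79 and 6.25 CPM in the libraries labelled *Mtmr2* KO 4501 to 4504, and at 4.11, 4.68, 3.56 and 2.62 CPM in niacin libraries 4505 to 4508. *Hspa1b* was at 12.7, 14.1, 17.2 and 11.75 CPM in WT control, at 28.1, 5.56, 10.6 and 13.95 CPM in *Mtmr2* KO and at 7.89, 11.4, 8.13 and 5.36 CPM with niacin. Both copies were highest in 4501 and lowest in 4508, with 4502 just above it. The ratio of *Hspa1b* to *Hspa1a* counts lay between 1.36 in 4503 and 3.08 in 4499.

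Their partners *Hsph1* and *Dnajb1* varied less in the *Mtmr2* KO and niacin libraries. *Hsph1* (HSP110) was at 38.65, 34.5, 43.8 and 39.3 CPM in WT control, at 43.9, 33.4, 20.6 and 30.2 CPM in *Mtmr2* KO and at 40.65, 40.3, 43.95 and 32.1 CPM with niacin, and its lowest value was that of library 4503. *Dnajb1* (a J protein) was at 36.1, 37.4, 38.4 and 36.45 CPM in WT control, at 47.45, 31.0, 39.4 and 35.3 CPM in *Mtmr2* KO and at 47.1, 38.45, 40.6 and 34.8 CPM with niacin, so that the groups overlapped throughout. *Hsp90aa1* was at 241, 213, 266 and 284 CPM in WT control, at 234, 689, 176 and 276 CPM in *Mtmr2* KO and at 342, 276, 334 and 342 CPM with niacin. Library 4502 had more than any other library, and 3 of the 4 niacin libraries lay above all WT control libraries.

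Among the small heat shock proteins, *Cryab* was at 901, 774, 865 and 900 CPM in WT control, at 994, 2122, 952 and 1129 CPM in *Mtmr2* KO and at 1236, 1090, 1082 and 1007 CPM with niacin. All 8 libraries labelled *Mtmr2* -/- lay above all 4 WT control libraries. *Hspb1* was at 37.1, 59.2, 67.6 and 52.3 CPM in WT control, at 39.85, 36.3, 64.1 and 34.0 CPM in *Mtmr2* KO and at 24.3, 44.3, 34.7 and 19.3 CPM with niacin, and with niacin only library 4506 lay above the lowest WT control library. *Hspb8* was at 17.35, 22.1, 16.6 and 21.5 CPM in WT control, at 12.75, 15.2, 18.0 and 16.2 CPM in *Mtmr2* KO and at 13.5, 20.03, 21.8 and 18.3 CPM with niacin, with overlap between all groups. The HSPB8 partner *Bag3* was at 47.0, 43.0, 48.6 and 41.6 CPM in WT control, at 49.6, 20.9, 53.4 and 39.0 CPM in *Mtmr2* KO and at 28.7, 34.2, 29.01 and 20.6 CPM with niacin. Every niacin library lay below every WT control library for *Bag3*, and library 4502 was within the niacin range. The mitochondrial *Hspe1* was at 45.3, 44.0, 50.4 and 57.6 CPM in WT control, at 43.6, 122, 33.5 and 60.8 CPM in *Mtmr2* KO and at 65.7, 56.8, 68.9 and 73.3 CPM with niacin, with the highest value again in 4502.

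**Figure D1:**
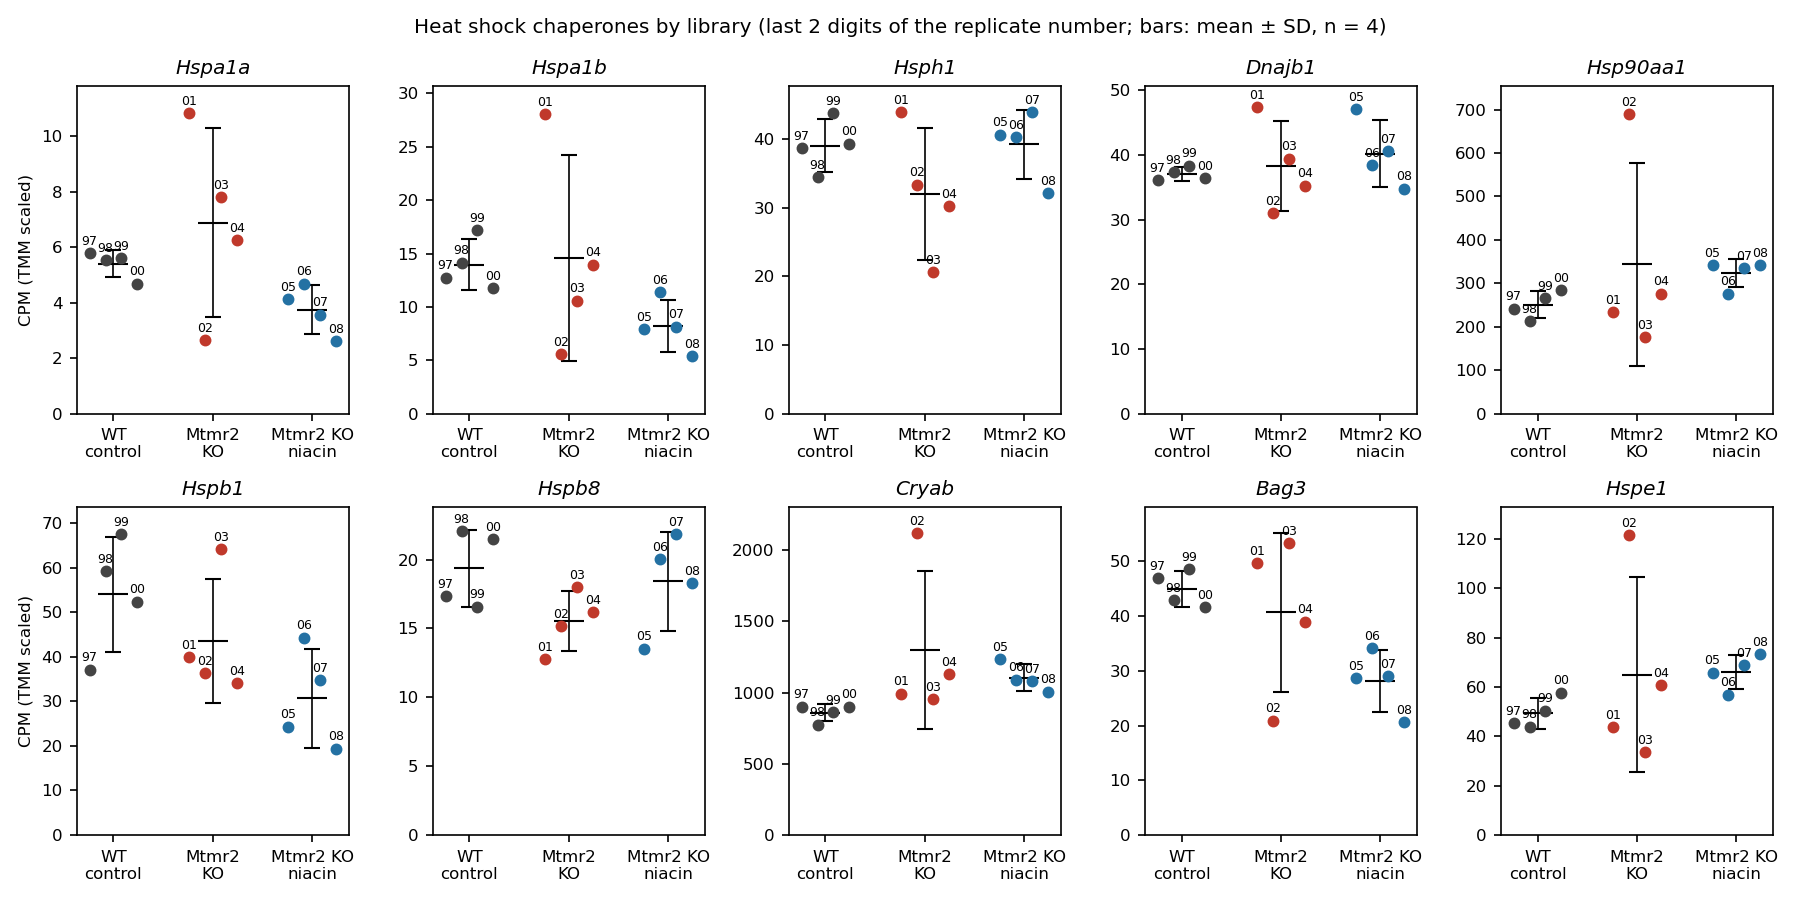
Level of each of the 10 genes in CPM in every library, by group, with the mean and SD of 4 libraries as bars. The *Mtmr2* KO points spread widely for *Cryab* and *Hsp90aa1*, with library 4502 at 2122 CPM for *Cryab* and 689 CPM for *Hsp90aa1*, and the niacin points of *Bag3* (20.6 to 34.2 CPM) lie below those of WT control (41.6 to 48.6 CPM).

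For 8 of the 10 members the log2 level spread most between mice in the *Mtmr2* KO group. The SD of the log2 level was 0.961 for *Hspa1b*, 0.855 for *Hspa1a*, 0.851 for *Hsp90aa1* and 0.804 for *Hspe1* in *Mtmr2* KO libraries, against 0.237, 0.135, 0.181 and 0.176 in WT control. The median gene had 0.395 in *Mtmr2* KO and 0.16 in WT control. The exceptions were *Hspb1* and *Hspb8*, which spread most with niacin, with SDs of 0.53 and 0.3 there against 0.413 and 0.207 in *Mtmr2* KO.

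The first comparison, *Mtmr2* KO with WT control, asks what loss of the phosphatase does to these genes. None of the 10 passed the quasi-likelihood test of edgeR, fitted to the 12 libraries together, at a Benjamini-Hochberg adjusted p under 0.05 (adjusted over all 17257 genes tested), where 0.267% of all genes did. The smallest unadjusted edgeR p of the 10 was that of *Cryab* (0.0218), and DESeq2 and limma-voom also called none. The largest difference was that of *Cryab*, 860 ± 59.8 CPM in WT control and 1299 ± 554 CPM in *Mtmr2* KO (SD, n = 4 each), a log2 fold change of 0.60 (SE 0.23, edgeR adjusted p = 0.209). It was the 1 member whose groups did not overlap, which held for 9.32% of all genes, with a two-sided exact permutation p of 0.0286, the smallest that 4 against 4 allows, and 0.214 after adjustment over 30 tests. Without library 4502 its log2 fold change was 0.25 (edgeR adjusted p = 0.397), and without 4503 it was 0.72 (edgeR adjusted p = 0.153).

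The other members differed in both directions. Log2 fold changes against WT control were 0.46 (SE 0.32) for *Hsp90aa1*, 0.39 (SE 0.30) for *Hspe1* and 0.36 (SE 0.32) for *Hspa1a*. They were 0.06 for *Hspa1b*, 0.05 for *Dnajb1* and −0.14 for *Bag3*, and −0.29, −0.31 and −0.32 for *Hsph1*, *Hspb1* and *Hspb8*. The median over the 10 was 0.05 beside 0.03 over all genes tested. Without 4502 the values turned to −0.13 for *Hsp90aa1*, −0.10 for *Hspe1* and 0.07 for *Bag3*, so their direction rested on that library, and *Hspa1a* and *Hspa1b* were at 0.62 and 0.32. Without 4503 the value was −0.13 for *Hsph1*, −0.56 for *Hspb1*, −0.30 for *Bag3*, 0.61 for *Hspe1* and 0.19 for *Hspa1b*, none of them called by edgeR. After correction for GC content and length, described below, *Hspe1* was at 0.02 and *Bag3* at −0.05. In library 4502, besides the higher neuron markers given above, endothelial genes summed to 162.5 CPM against 252 to 499 CPM in the other *Mtmr2* KO libraries. The part of this composition in the chaperone levels was not tested. Glucocorticoid-induced genes, of which all 9 had positive log2 fold changes in this comparison, summed to 2048 to 7566 CPM in *Mtmr2* KO and 1305 to 1606 CPM in WT control. Their sum was highest in 4503, the library with the lowest *Hsph1*, *Hsp90aa1* and *Hspe1* levels of all 12. It was next highest, at 4042 CPM, in 4502, the library with the highest *Hsp90aa1* and *Hspe1* levels of all 12. The part of these genes in the chaperone levels was not tested.

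The second comparison, *Mtmr2* KO with and without niacin, asks how treatment altered the mutant nerve. None of the 10 was called by edgeR over all 12 libraries, where 1.43% of all genes were. The smallest unadjusted edgeR p of the 10 was that of *Hspa1a* (0.0168). DESeq2 called none, and limma-voom with sample quality weights called 3, all lower with niacin (*Hspa1a*, *Hspa1b* and *Bag3*), where it called 11.6% of all genes. *Hspa1a* was 3.74 ± 0.880 CPM with niacin and 6.88 ± 3.41 CPM without (SD, n = 4 each), a log2 fold change of −0.88 (SE 0.32, edgeR adjusted p = 0.159). For *Hspa1b* it was −0.83 (SE 0.38, edgeR adjusted p = 0.236) and for *Bag3* −0.53 (SE 0.24, edgeR adjusted p = 0.227). No member had groups that did not overlap, against 7.01% of all genes.

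These calls turned on library 4502, in which the HSP70 pair and *Bag3* lay within the niacin range. Without 4503 none was called. With 4502 left out, edgeR called 4 members, where 23.6% of all genes were called. *Hspa1a* fell by 1.16 (edgeR adjusted p = 0.00633), *Hspa1b* fell by 1.11 (edgeR adjusted p = 0.0221) and *Bag3* fell by 0.77 (edgeR adjusted p = 0.00796) on the log2 scale, while *Hsp90aa1* rose by 0.48 (edgeR adjusted p = 0.0452). With both 4502 and 4503 left out, 12.5% of all genes and the first 3 of these were called, at −1.21, −1.38 and −0.67, and *Hsp90aa1* was not (0.34, edgeR adjusted p = 0.145). The remaining members, *Hsph1*, *Dnajb1*, *Hspb1*, *Hspb8*, *Cryab* and *Hspe1*, had log2 fold changes between −0.51 (*Hspb1*) and 0.29 (*Hsph1*) over all 12 libraries and were called in neither fit. Several of these rested on single libraries. *Hspb1* was at −0.26 and *Hsph1* at 0.13 without 4503, and without 4506 and 4507 *Hspb1* was at −1.005, *Hspb8* at 0.02 and *Hsph1* at 0.18, with no member called. *Hspe1* was at 0.51 without 4502 (edgeR adjusted p = 0.0540). After correction for GC content and length, over all 12 libraries, *Hspa1a* was at −0.66, *Hspa1b* at −0.63, *Bag3* at −0.41 and *Hsp90aa1* at −0.15. Their edgeR adjusted p were 0.143, 0.259, 0.200 and 0.793. Library 4502 shared the trends of the niacin libraries with GC content and length, given below, and no fit without it was corrected for them.

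Other gene groups moved in the same comparison. All 9 glucocorticoid-induced genes had negative values with niacin (median log2 fold change −1.22), of which edgeR called 2 over all 12 libraries, and their summed level was 1099 to 1808 CPM against 2048 to 7566 CPM without niacin. Of 12 skeletal muscle markers 8 were called higher, with 98.1 to 4068 CPM against 38.1 to 86.1 CPM in sum. All 6 myelinating Schwann cell markers had negative values (median −0.35) and none was called, at 61800 to 101300 CPM against 85150 to 116800 CPM in sum. No marker of these lists was at 0 in any library, and their part in the chaperone levels was not tested.

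The third comparison sets niacin-treated mutants against WT control, so genotype and treatment cannot be told apart in it. None of the 10 was called by edgeR over all 12 libraries, nor was any other gene (0.0% of 17257), although 2 members and 4254 of all genes had an unadjusted p under 0.05. In that fit the 3 groups share 1 estimate of spread, and the SE of *Bag3*, for example, was 0.24. With only the 8 libraries of the groups compared, edgeR called 7 members, where 33.9% of all genes were called. The same 7 were called by DESeq2 on those 8 libraries, where it called 36.9% of all genes, and by limma-voom with sample quality weights over all 12, where it called 42.4%. DESeq2 over all 12 libraries called 1 member, *Hspb1*, and 7.0% of all genes.

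Of the 7, *Hspb1*, *Hspa1b*, *Bag3* and *Hspa1a* were lower with niacin. In the fit of 8 libraries *Hspb1* fell by 0.81 (SE 0.24, edgeR adjusted p = 0.0221), from 54.05 ± 12.9 to 30.7 ± 11.1 CPM (SD, n = 4 each). *Hspa1b* fell by 0.77 (SE 0.20, edgeR adjusted p = 0.0129), *Bag3* fell by 0.67 (SE 0.13, edgeR adjusted p = 0.00397) and *Hspa1a* fell by 0.52 (SE 0.18, edgeR adjusted p = 0.0415), all on the log2 scale. *Bag3* had the smallest adjusted p of the 10 in this fit, at 28.1 ± 5.60 CPM with niacin against 45.0 ± 3.29 CPM (SD, n = 4 each).

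The other 3 were higher with niacin. *Hspe1* rose by 0.43 (SE 0.11, edgeR adjusted p = 0.0131), *Hsp90aa1* by 0.37 (SE 0.12, edgeR adjusted p = 0.0303) and *Cryab* by 0.37 (SE 0.11, edgeR adjusted p = 0.0221). *Hsph1*, *Dnajb1* and *Hspb8* were not called, with 0.01 (SE 0.10), 0.12 (SE 0.09) and −0.07 (SE 0.15). The groups did not overlap for 3 members, *Hspa1b*, *Cryab* and *Bag3*, a share close to the 31.4% of all genes, and each had an exact permutation p of 0.0286, 0.214 after adjustment over 30 tests. The inducible members took both directions in this fit, with the HSP70 pair lower and *Hsp90aa1* higher.

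**Figure D2:**
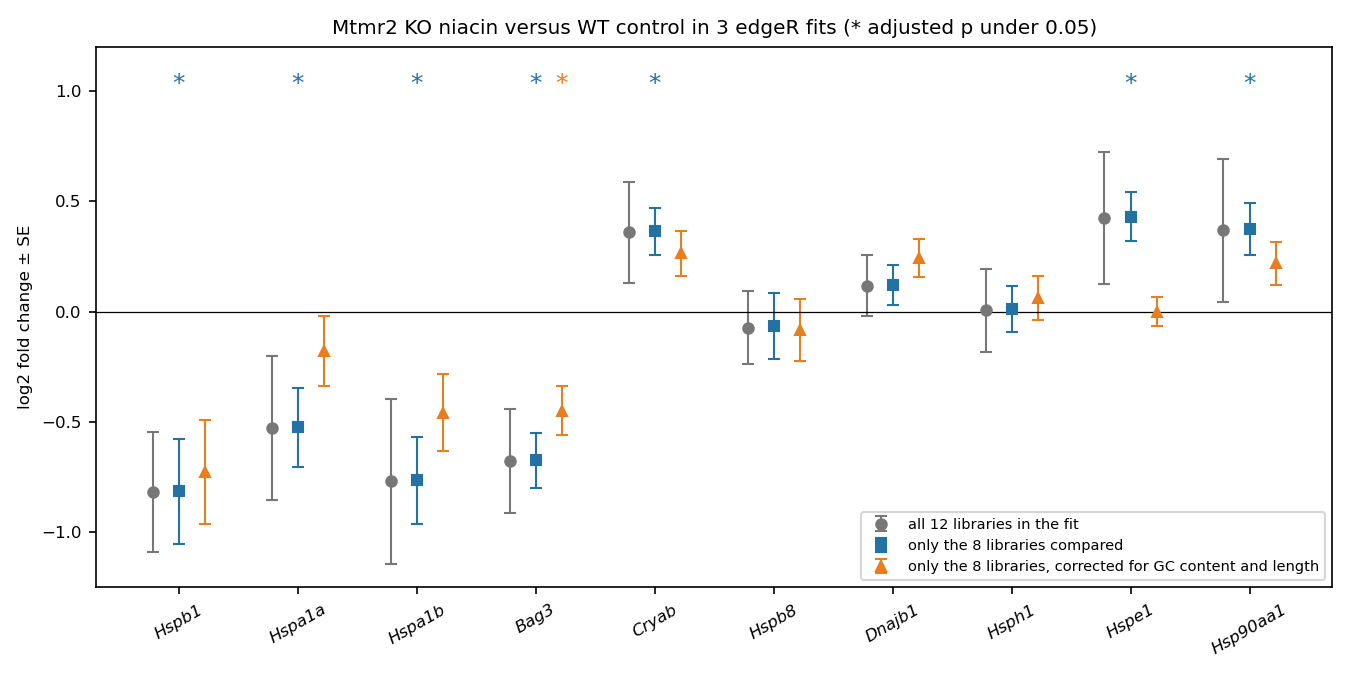
Log2 fold change of each gene between niacin-treated *Mtmr2* KO and WT control, with its SE, in 3 edgeR fits, ordered from the highest to the lowest GC content of the transcript. Squares (8 libraries) and circles (12 libraries) lie at nearly the same values with different errors, while the triangles after correction for GC content and length lie nearer 0 for *Hspa1a* (−0.18) and *Hspe1* (−0.0011) and keep a star for *Bag3* (−0.45).

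Levels moved with GC content and with transcript length in these libraries, and the members differ widely in both. Their longest transcripts hold 61.7% GC in *Hspb1*, 58.9% in *Hspa1a*, 58.1% in *Hspa1b* and 56.1% in *Bag3*, the 4 that were lower. *Cryab* (54.4%), *Hspb8* (53.0%), *Dnajb1* (52.7%) and *Hsph1* (47.3%) lie between, and *Hspe1* (45.5%) and *Hsp90aa1* (43.7%), both higher, are lowest. Among all genes, the median log2 deviation from the WT control mean in the fifth with the most GC was −0.46 in library 4502 and −0.38 to −0.21 in the 4 niacin libraries. It was between −0.08 and 0.03 in the other 3 *Mtmr2* KO libraries. In the fifth with the least GC it was 0.44 in 4502 and 0.14 to 0.34 with niacin. The trend was shared by libraries of 2 groups, and its source was not tested.

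When each library was corrected for GC content and transcript length, 1 member was called in the 8 libraries, where 18.6% of all genes were. *Bag3* fell by 0.45 (SE 0.11, edgeR adjusted p = 0.0199). *Hspb1* kept −0.73 (SE 0.24) but missed the threshold (edgeR adjusted p = 0.0551), and *Hspa1b* had −0.46 (edgeR adjusted p = 0.0936), *Cryab* 0.26 (edgeR adjusted p = 0.0949) and *Hsp90aa1* 0.22 (edgeR adjusted p = 0.138). *Hspa1a* and *Hspe1* moved close to 0, at −0.18 (edgeR adjusted p = 0.478) and −0.0011 (edgeR adjusted p = 0.993). After correction the 4 niacin libraries lay within 0.05 of the WT control mean for *Hspe1* on the log2 scale, whereas *Bag3* deviated by −0.37, −0.25, −0.41 and −0.84.

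**Figure D3:**
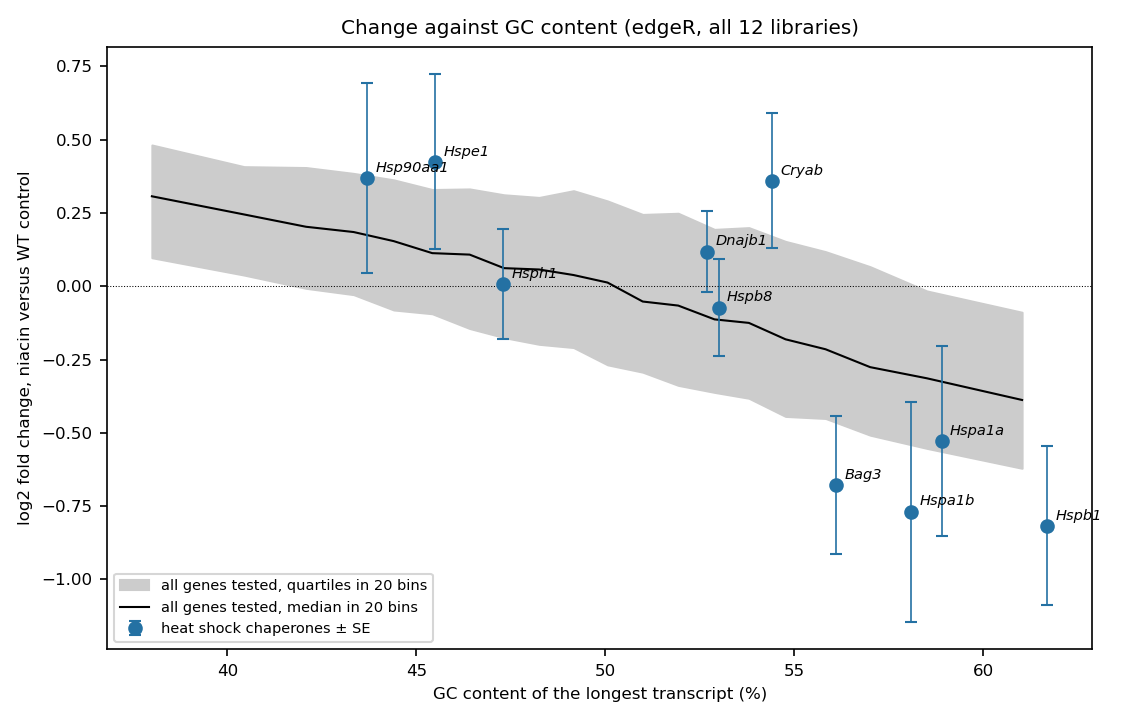
Log2 fold change between niacin-treated *Mtmr2* KO and WT control against the GC content of the longest transcript, with SE bars, in the edgeR fit of 12 libraries, over the median (line) and quartiles (band) of all genes in 20 bins. The median of all genes runs from 0.31 in the bin with least GC to −0.39 in the bin with most, *Hsph1* and *Hspb8* lie near it, *Bag3*, *Hspa1b* and *Hspb1* lie below the band (*Hspb1* just past its end) and *Cryab* and *Hspe1* above it.

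Other markers also moved in this comparison. Over the 4 endothelial markers, all with lower values, the summed level was 185 to 294 CPM with niacin and 396 to 433 CPM in WT control, and over the 5 neuron markers it was 31.0 to 40.6 CPM against 19.2 to 24.4 CPM. No endothelial marker was at 0 in any library, and of the neuron markers only *Scn10a* was. Their part in the chaperone levels was not tested. Small heat shock proteins are abundant in muscle, and libraries 4506 and 4507, with muscle RNA, had more *Hspb1* and *Hspb8* than 4505 and 4508. *Cryab* did not follow, at 1090 and 1082 CPM in 4506 and 4507 against 1236 and 1007 CPM in 4505 and 4508. The part of muscle RNA in these levels was not tested. Without 4506 and 4507 the log2 fold change against WT control was −1.33 for *Hspb1*, −0.32 for *Hspb8*, 0.36 for *Cryab* and −0.89 for *Bag3*, with edgeR adjusted p of 0.213, 0.419, 0.533 and 0.254 over the remaining 10 libraries. Leaving out 4502, which is in neither group but adds to the shared spread, gave calls for *Bag3* (−0.70, edgeR adjusted p = 0.00959) and *Hspb1* (−0.84, edgeR adjusted p = 0.0422), where 21.6% of all genes were called.

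Across the 12 libraries the members fell into sets that moved together. The levels of *Hsp90aa1* and *Hspe1* had a Pearson r of 0.981 (Spearman rho 0.951). This r was 0.975 without 4502 and 0.918 after the correction for GC content and length. *Hspa1a* went with *Hspa1b* (r = 0.902, rho = 0.783) and with *Bag3* (r = 0.906, rho = 0.895), with r of 0.82 and 0.8 after the correction. Between these sets the levels ran against each other, with r = −0.892 (rho −0.937) for *Bag3* and *Hspe1* and −0.83 (rho −0.86) for *Hspa1a* and *Hspe1*. The r became −0.634 and −0.583 after correction, and −0.502 and −0.517 after correction and without 4502. Without the 2 libraries farthest from the median of the first gene of each pair, the r of these 5 pairs were 0.956, 0.778, 0.931, −0.872 and −0.919. For *Hspa1b* and *Hspe1* r was −0.691, −0.26 after correction and −0.0236 after correction and without 4502. In that last setting the r with *Hsp90aa1* were −0.738 for *Bag3*, −0.59 for *Hspa1a* and −0.296 for *Hspa1b*. Members outside these sets also had high r with some of them. It was 0.872 for *Cryab* and *Hsp90aa1* (0.581 without 4502) and 0.742 for *Hspb1* and *Bag3* (0.825 without 4502). *Hsph1*, which also belongs to the inducible group, had r between −0.13 and 0.34 with each of the other 9, but these values moved with the libraries and the correction: its rho with *Dnajb1* was 0.643, and after correction and without 4502 its r was 0.77 with *Hspe1* and 0.689 with *Hsp90aa1*. These values describe 12 libraries that share groups and the trends with GC content and length, and *Hspa1a* and *Hspa1b* also share reads.

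**Figure D4:**
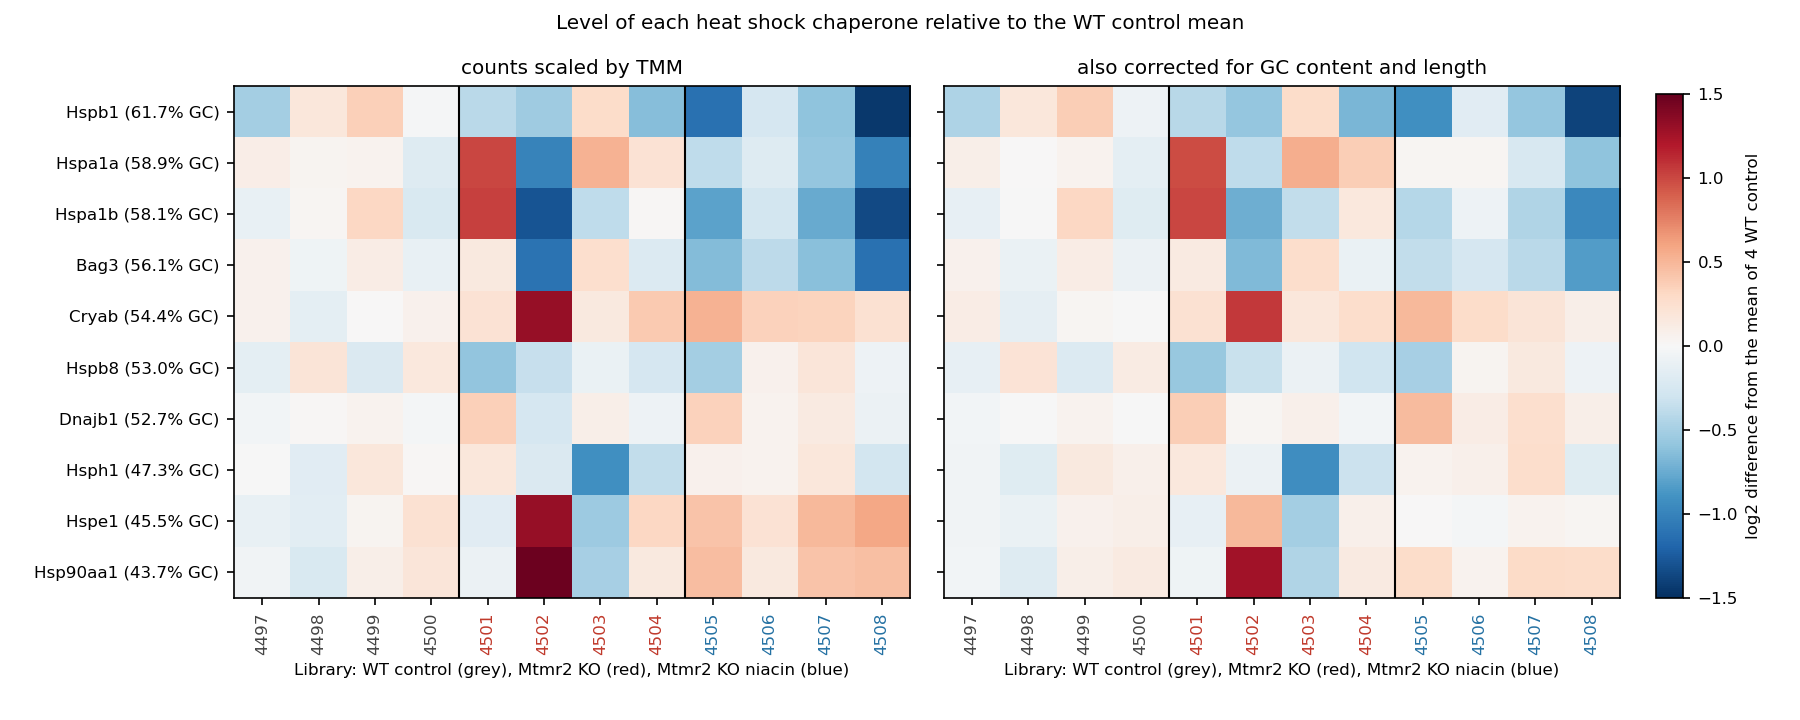
Log2 difference of each gene in each library from the mean of 4 WT control libraries, before (left) and after (right) correction for GC content and length, with genes ordered by GC content. On the left, library 4502 and the niacin libraries are blue for the GC-rich genes at the top and red for *Hspe1* and *Hsp90aa1* at the bottom. On the right, *Hspe1* is near white in the niacin libraries, while *Hspb1* (−1.39 in 4508) and *Bag3* (−0.84 in 4508) stay blue.

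The wider chaperone network was described through 74 listed genes, of which 73 were found and 71 tested, 5 of them on 2 lists. None was called by edgeR over all 12 libraries in the 3 comparisons, where in the order above 0.267%, 1.43% and 0.0% of all genes were. In the same order DESeq2 over all 12 libraries called 2, 5 and 4, beside 3.71%, 6.22% and 7.0% of all genes. Their median log2 fold changes were 0.02, 0.01 and 0.02, beside 0.03, −0.04 and 0.02 over all genes tested. Between niacin and WT control, in the fit of 8 libraries, 21 of the 71 were called higher and 12 lower, or 46.5% against 33.9% of all genes. After correction for GC content and length 11 were higher and 6 lower, or 23.9% against 18.6% of all genes.

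The TRiC chaperonin, a cytosolic ring that folds actin and tubulin, had higher values with niacin than in WT control for each of its 8 subunit genes. All 8 had groups that did not overlap, beside 31.4% of all genes. Their median log2 fold change over 12 libraries was 0.44 against 0.02 for all genes, and 7 were called in the fit of 8 libraries and 6 after correction, beside 33.9% and 18.6% of all genes, while none was called over all 12. *Cct2*, with the highest mean CPM of them over all 12 libraries, was 149 ± 13.4 CPM in WT control, 203 ± 61.2 CPM in *Mtmr2* KO and 184 ± 11.3 CPM with niacin (SD, n = 4 each), a log2 fold change of 0.31 that was called before correction (edgeR adjusted p = 0.0278) and not after (0.14, edgeR adjusted p = 0.206). *Cct5* rose by 0.43 (edgeR adjusted p = 0.0103) and by 0.33 after correction (edgeR adjusted p = 0.0270). Summed over the 8, TRiC reached 1765 CPM in library 4502, 920 to 1056 CPM in the other 3 *Mtmr2* KO libraries, 846 to 1043 CPM in WT control and 1111 to 1331 CPM with niacin. Between *Mtmr2* KO and WT control all 8 had positive values with a median of 0.30 and none called, and without 4502 the median was 0.01.

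Of the 9 constitutive HSP70 and HSP90 genes tested, 2 were called higher and 2 lower in the fit of 8 libraries, beside 33.9% of all genes called. After correction 0 and 2 were called, beside 18.6% of all genes. *Hsp90ab1*, the constitutive cytosolic HSP90, was 1214 ± 97.6 CPM in WT control and 895 ± 155 CPM with niacin (SD, n = 4 each), and it fell by 0.44 on the log2 scale in the fit of 8 libraries, also after correction (−0.41, edgeR adjusted p = 0.0372). This is opposite to its inducible paralog *Hsp90aa1* in the same fit. *Hspa8*, the constitutive HSP70, was 504 ± 68.9 and 650 ± 41.5 CPM (SD, n = 4 each), with 0.37 in the fit of 8 libraries (edgeR adjusted p = 0.03) and 0.29 after correction (edgeR adjusted p = 0.0683). The other called higher was *Hspa13* and the other called lower *Hspa12b*, both named after their values were seen, and *Hspa12b* fell by 0.74 (edgeR adjusted p = 0.00185). *Ubb*, a ubiquitin gene on the list of heat shock factor targets, rose (0.35, edgeR adjusted p = 0.0245, and 0.31 after correction, edgeR adjusted p = 0.0375) and was 853 ± 58.1 CPM in WT control and 1082 ± 78.6 CPM with niacin (SD, n = 4 each).

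For every list in this paragraph, the share called over all genes was 33.9% before correction and 18.6% after. Of the J proteins, 3 of 13 were called higher and 1 lower before correction and none after. *Dnaja1* was at 232 ± 19.9 and 307 ± 31.7 CPM in WT control and niacin and *Dnajc3* at 136 ± 5.97 and 160.3 ± 8.26 CPM (SD, n = 4 each), both among the 3 higher. Co-chaperones were called in both directions before correction, 2 higher and 3 lower of 17. Among them *Cdc37*, which brings kinases to HSP90, rose by 0.33 (edgeR adjusted p = 0.0283) and by 0.52 after correction. *Chordc1* (0.24, edgeR adjusted p = 0.0284) and *Bag6* (−0.30, edgeR adjusted p = 0.0254) were also among those called after correction. *St13*, an HSP70 co-chaperone, had 0.02 over 12 libraries (edgeR adjusted p = 0.946). Of 18 genes on the list of heat shock factors and their targets, 6 were higher and 4 lower before correction and 3 and 1 after, and the collagen chaperone *Serpinh1* was called in neither fit. Of 7 mitochondrial chaperones, 3 were higher and 2 lower before correction, with *Hspd1*, the HSP60 that pairs with HSPE1, at 137 ± 5.14 and 162 ± 7.24 CPM (0.25, edgeR adjusted p = 0.0349, and 0.14 after correction, edgeR adjusted p = 0.137). *Hspa9*, the mitochondrial HSP70, was called in neither fit. *Clpp* (0.41, edgeR adjusted p = 0.00851) and *Dnaja3* (−0.27, edgeR adjusted p = 0.0265), on the same list, were among those called after correction. Of the other small heat shock proteins, 2 of 6 were not tested (*Cryaa* and *Hspb3*, at 0 in at least 1 library each) and 1 of the 4 tested was called, *Hspb11*, before correction only. *Hspb2*, which shares exon bases with *Cryab*, was 51.3 ± 5.53 and 52.6 ± 7.77 CPM and not called.

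**Figure D5:**
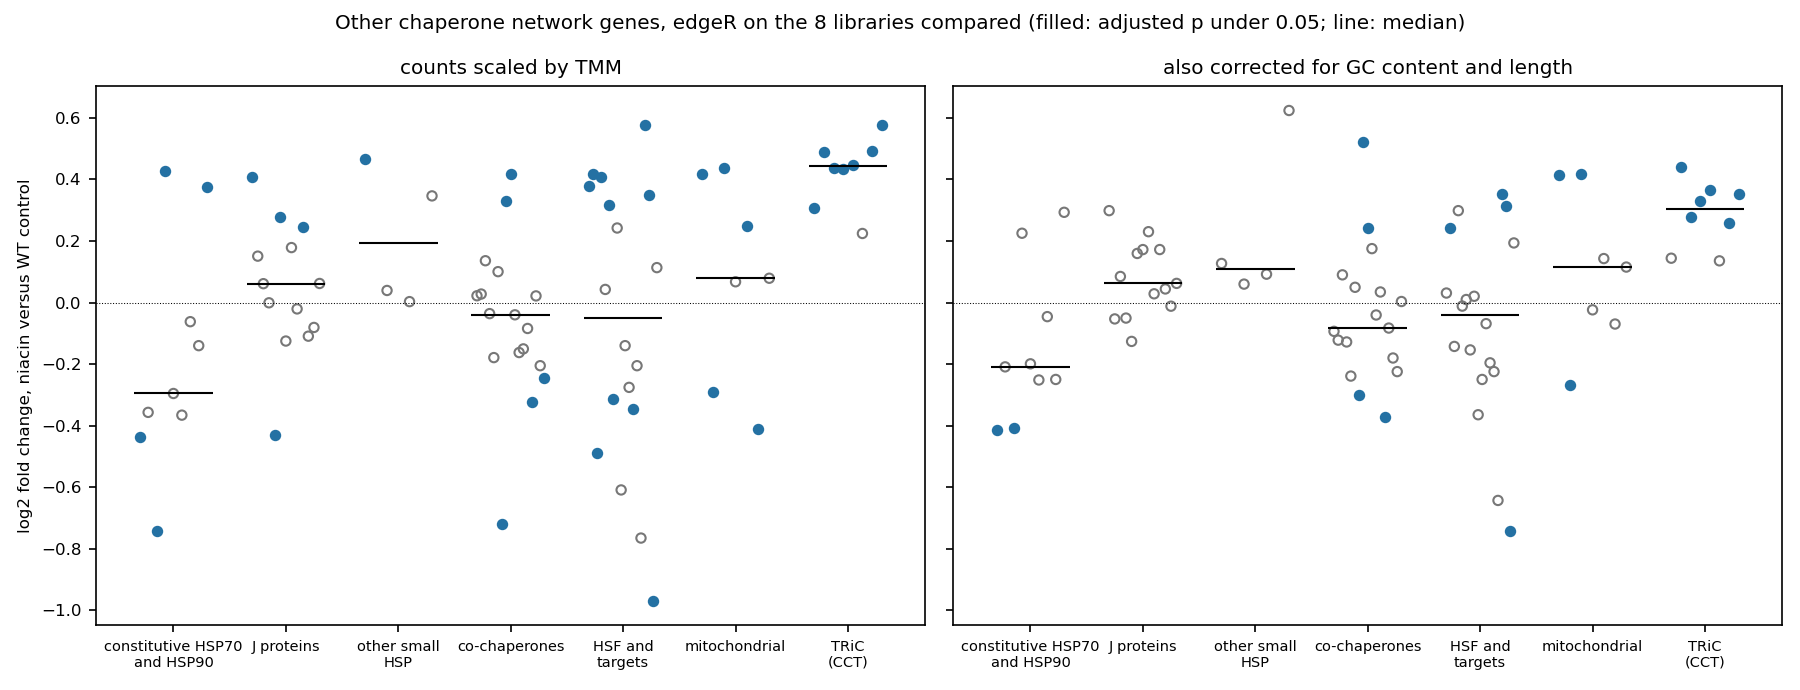
Log2 fold change between niacin-treated *Mtmr2* KO and WT control of 71 other chaperone genes by list, in edgeR fits of the 8 libraries without (left) and with (right) correction for GC content and length. Filled points passed an adjusted p of 0.05 and lines mark list medians. All 8 TRiC points lie above 0 on both sides, with 7 and 6 filled, while the co-chaperones and the heat shock factor list lie on both sides of 0.

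Chaperones of the endoplasmic reticulum, which answer to a different stress pathway, were on a separate list of 13 genes that shares *Dnajc3* with the J proteins. Between niacin and WT control 1, *Dnajc3*, was called higher and 5 lower in the fit of 8 libraries, beside 33.9% of all genes called, and 0 and 6 after correction, beside 18.6%. *Calr*, a calcium-binding chaperone, was 564 ± 64.3 and 418 ± 82.3 CPM (SD, n = 4 each) and fell by 0.43 (edgeR adjusted p = 0.0420), and *Canx* was not called.

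The genes whose levels were most like those of the members over the 12 libraries were sought among 14452 tested genes with a mean of at least 1 CPM. For the mean log2 level of *Hspa1a*, *Hspa1b*, *Hsph1*, *Dnajb1* and *Hsp90aa1* they were *Rab11fip4* (r = 0.954), *Dusp16* (0.92), *Ubtf* (0.912), *Klf16* (0.911) and *Rgmb* (0.903). Without libraries 4501 and 4508, the farthest from the median, these r were 0.713 (*Ubtf*) to 0.862 (*Klf16*), and Spearman's rho over all 12 was 0.762 to 0.944. For the mean of *Hspb1*, *Hspb8*, *Cryab* and *Bag3* they were *Proser2* (r = 0.928), *Siah1b* (0.92), *Cldn14* (0.91), *Rundc1* (0.907) and *Crim1* (0.904), and without libraries 4508 and 4503 the r were 0.784 (*Siah1b*) to 0.866 (*Crim1*), with rho over all 12 of 0.839 to 0.944. No chaperone was among these 10 genes, which says little, since chaperones are a small part of the 14452 searched. Each mean also joins members that ran against each other, with r = −0.78 for *Hspa1a* and *Hsp90aa1* and −0.682 for *Cryab* and *Bag3*.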

How the data were processed

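RNA of 12 sciatic nerves, 1 per mouse, was sequenced by the authors as polyA libraries. Per the submitters' processing notes, base calls came from CASAVA 1.9 and reads were aligned with STAR to GRCm38 (mm10). The deposited table holds raw counts per Ensembl gene, and the counting program was not given in the sources used here. Further deposited DESeq2 tables hold the authors' fold changes and p-values, which were not used beyond their gene symbols. The 10 members and all gene lists were chosen with earlier results of these data known.

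Groups follow the labels. Totals of 20763951 to 33191106 counts limit the precision. Counts were filtered with filterByExpr, scaled by TMM and tested with the quasi-likelihood functions of edgeR 4.0.16 (R 4.3.3) over 12 libraries, and a gene was called where the Benjamini-Hochberg adjusted p was under 0.05. SE is the log2 fold change over the square root of F. Log2 CPM used a prior count of 2. Single genes were also compared by two-sided exact permutation over samples. Alternatives were DESeq2 1.42.0, limma 3.58.1 (voom with sample quality weights), other filters and scaling, *Xist* as a covariate, fits of only the groups compared and leaving out each library. A correction per library, by natural splines with 5 degrees of freedom on the GC content and the length of a gene's longest GENCODE M21 transcript (both known for 99.3% of genes tested), and leaving out pairs of libraries were chosen after seeing the data. The fits were tested on simulated data. All members are named, as are the 2 genes with the highest mean CPM of each network list, any gene called there and the 5 genes most like each member set. Some items are not reported here.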

Additional observations from a re-analysis of the deposited data

Results flagged for a closer look

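In 2 of 30 groups of 4 libraries, the gap between 1 library and its nearest neighbour exceeded, as a share of the whole range, Dixon's critical value at 95%, which chance gives in about 1 in 20 groups. *Cryab* in library 4502 of *Mtmr2* KO, at 2122 CPM, was the highest of its group with a ratio of 0.849. *Hsp90aa1* in library 4506 of *Mtmr2* KO niacin, at 276.0 CPM, was the lowest of its group with a ratio of 0.877.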

How the results depend on the processing

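No member was called between *Mtmr2* KO and WT control under any alternative run. Between niacin and *Mtmr2* KO the number of members called went from 0 to 3 with limma-voom and to 3 without both 4502 and 4503, and ranged from 0 to 4 with each library left out in turn (4 without 4502). Between niacin and WT control it went from 0 to 1 with DESeq2 over 12 libraries, to 7 with DESeq2, 7 with edgeR on only those groups and 7 with limma-voom, to 1 with edgeR on those groups after GC and length correction, and to 6 without 4502 and 4503, and ranged from 0 to 2 with 1 library left out (2 without 4502). For the other network genes the counts between *Mtmr2* KO and WT control were 2 (DESeq2, 12 libraries), 1 (DESeq2, those groups), 1 (genes with at least 1 count in total) and 1 (GC and length correction), with 0 to 1 leaving out 1 library. Between niacin and *Mtmr2* KO they were 5 (DESeq2, 12 libraries), 12 (limma-voom), 2 (at least 1 count), 1 (correction) and 13 (without 4502 and 4503), with 0 to 23 (23 without 4502). Between niacin and WT control they were 4 and 34 (DESeq2 on 12 libraries and on those groups), 37 (limma-voom), 33 (edgeR on those groups), 1 (at least 1 count), 17 (those groups, corrected) and 31 (without 4502 and 4503), with 0 to 18 (18 without 4502). The causes were not tested. For the fit without 4502 and 4503, the share of all genes called between niacin and WT control is not given here. Its 6 members and 31 network genes therefore cannot be set beside that share. In this comparison 21.6% of all genes were called without 4502 and 33.9% with edgeR on only those groups.

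Log2 fold changes near 0 turned direction. Against WT control in *Mtmr2* KO, *Dnajb1* was −0.02 with genes of at least 1 count. Leaving out 1 library gave −0.48 to 0.32 for *Hspa1b*, −0.08 to 0.13 for *Dnajb1*, −0.13 to 0.67 for *Hsp90aa1*, −0.30 to 0.07 for *Bag3* and −0.10 to 0.61 for *Hspe1*, where 4502 gave the turned value of the last 3 and 4501 that of the first 2. Between niacin and *Mtmr2* KO, *Hsp90aa1* was 0.31 with limma-voom, 0.04 with *Xist* as a covariate and 0.34 without 4502 and 4503, where *Dnajb1* was −0.05 and *Cryab* 0.05. *Hspe1* was −0.01 after correction and −0.02 in only those groups. Leaving out 1 library gave −0.03 to 0.19 for *Dnajb1*, −0.30 to 0.48 for *Hsp90aa1*, −0.36 to 0.09 for *Cryab* and −0.19 to 0.51 for *Hspe1*. Between niacin and WT control, *Hsph1* was −0.0044 and −0.01 with DESeq2, −0.04 with at least 1 count and −0.13 without 4506 and 4507, *Hspb8* was 0.10 with limma-voom, and *Hspe1* was −0.0011 in those groups after correction. Leaving out 1 library gave −0.06 to 0.09 for *Hsph1* and −0.17 to 0.04 for *Hspb8*. Of the values for single genes, 706 kept direction and side of the threshold, 52 passed it anew and 34 turned. No paired analysis was possible because the replicate numbers differ between groups.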
